A study of Mus musculus with 12 samples.

Results

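The 6 genes described here encode core proteins of the chondroitin sulphate proteoglycans of the central nervous system: Acan (aggrecan), Bcan (brevican), Ncan (neurocan), Vcan (versican), Cspg5 (neuroglycan C) and Ptprz1 (receptor-type protein tyrosine phosphatase zeta). They were given by gene symbol from the 37991 genes of the count table, with earlier results of these data known. Of these 6 genes, 6 passed the filter on low counts that left 16473 genes for testing. Their identifiers in the files are ENSMUSG00000030607 for Acan, ENSMUSG00000004892 for Bcan, ENSMUSG00000002341 for Ncan, ENSMUSG00000021614 for Vcan, ENSMUSG00000032482 for Cspg5 and ENSMUSG00000068748 for Ptprz1.

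Whole-tissue RNA was sequenced from 12 adult C57bl/6J mice, aged over 8 weeks, 4 in each of 3 groups, and each library is named by its mouse number. Mice of all 3 groups carried Glast-CreERT2, a tamoxifen-dependent Cre recombinase driven by the promoter of the glutamate transporter Glast (Slc1a3), together with the R26R-YFP reporter and the Rasless alleles. The uninjured group (376, 377, 385 and 467) is labelled as injected with vehicle and gave cord segments without a lesion. The vehicle lesion group (402, 428, 429 and 457, labelled SCI Veh) received the solvent alone, an ethanol and corn oil mixture, before a dorsal hemisection at high thoracic level. The tamoxifen lesion group (452, 513, 549 and 564, labelled SCI Tam) received 2 mg of tamoxifen on each of 5 days. Surgery followed 7 clearing days after the last injection. The vehicle lesion group had the same 5 injection days and 7 clearing days. Both lesion groups were dissected 14 days after injury, and the series describes pericyte-derived scarring as dense with vehicle and attenuated with tamoxifen. The line is used to recombine type A pericytes, but Glast is also an astrocyte gene, and the libraries were made from whole tissue. In such bulk tissue, fewer cells of a type and less RNA per cell cannot be told apart.

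Chondroitin sulphate proteoglycans consist of a core protein that carries long sulphated sugar chains. Aggrecan, brevican, neurocan and versican are the lecticans, which bind hyaluronan at one end and tenascins at the other, and which build the perineuronal nets around neurons and the matrix at nodes of Ranvier. After spinal cord injury these proteoglycans accumulate around lesions and are known as barriers to axon growth. Neuroglycan C is a transmembrane proteoglycan of neurons and glia. Ptprz1 encodes a transmembrane phosphatase of glia and also its secreted extracellular form, phosphacan, and counts per gene do not separate such isoforms, nor those of Vcan and Bcan.

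Library totals ran from 7967970 to 12581324 counts. Levels between libraries are given as CPM, counts scaled by library total and TMM factor, as mean ± SD of 4 libraries, and levels between genes as the FPKM values that the authors deposited, which are per transcript length. Defining genes of the labelled tissue were present, such as the neuronal gene Snap25 (2121 ± 105 CPM in uninjured cord) and the myelin gene Mbp (7636 ± 649 CPM). The labels do not say which Ras genes the Rasless alleles lack, and Hras1 (log2 -0.02, adjusted p = 0.925) and Nras (log2 -0.03, adjusted p = 0.913) did not pass the test between the lesion groups. In 5 libraries (377, 385, 402, 429 and 457) skeletal muscle transcripts were high, and none of these was a tamoxifen lesion. Sex-linked transcripts marked 4 libraries as male (467, 402, 428 and 457), so every tamoxifen lesion came from a female and 3 of 4 vehicle lesions from males. The tamoxifen libraries 513, 549 and 564 carry sample names 106 to 108, whereas the 9 other libraries, tamoxifen library 452 among them, carry low numbers. What that difference in naming stands for is not given in the labels. Nothing in the labels says more of how replicates were drawn than the mouse number in each title.

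Per transcript length, Bcan was the most abundant of the 6 in every group. In uninjured cord Bcan was at 73.9 ± 1.38 FPKM, Cspg5 at 28.9 ± 1.18, Ptprz1 at 20.1 ± 1.94 and Ncan at 10.5 ± 1.31 FPKM. Vcan followed at 4.95 ± 0.466 FPKM and Acan at 4.64 ± 0.202 FPKM. The libraries of these last 2 overlapped in FPKM, and all other neighbours in the order were separate. In vehicle lesions the order was Bcan (68.2 ± 1.52 FPKM), Ptprz1 (29.4 ± 1.66), Cspg5 (24.7 ± 1.97), Vcan (15.7 ± 3.55), Ncan (13.8 ± 1.03) and Acan (3.28 ± 0.0748). There Vcan and Ncan overlapped. In tamoxifen lesions Bcan stayed at the top (67.5 ± 7.14 FPKM) and Acan at the bottom (2.77 ± 0.262 FPKM). Between them Cspg5 (29.6 ± 3.03 FPKM), Ptprz1 (28.6 ± 5.02), Ncan (24.5 ± 14.9) and Vcan (12.4 ± 5.88) overlapped, each with the next.

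**Figure D1:**
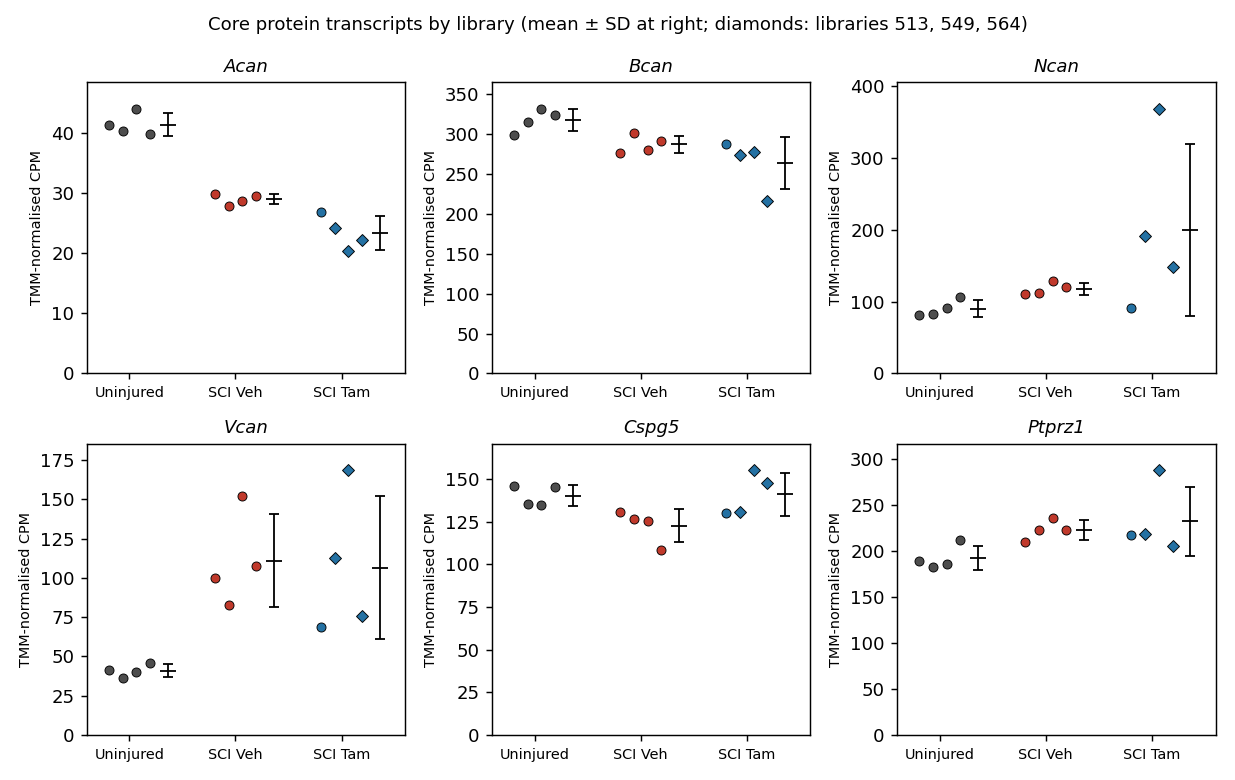
TMM-normalised CPM of the 6 core protein genes (y axis, from 0) in each library, by group (x axis), with the mean ± SD of 4 libraries beside the points and diamonds for libraries 513, 549 and 564. Vcan lay at 36.3 to 46.1 CPM in uninjured cord and at 83.0 to 152 CPM in vehicle lesions, and Ncan spread from 91.0 to 369 CPM in tamoxifen lesions.

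The upstream windows of Vcan, Ncan and Acan are shown next because these members had the largest differences between tamoxifen lesions and uninjured cord, 2 upward and 1 downward. They are the 250 bases before the RefSeq start of the gene on GRCm38.p6, a later build than that of the files, on the strand of the gene. RefSeq windows were matched for 5 of 6 members, and Cspg5 is named only. The 2 motifs searched on both strands were TATAA and the AP-1 motif (TGAGTCA or TGACTCA). Capitals mark TATAA and its reverse complement TTATA, which overlap in Ncan, and the other windows hold neither motif.
Vcan, chr13:89742513-89742762, minus strand: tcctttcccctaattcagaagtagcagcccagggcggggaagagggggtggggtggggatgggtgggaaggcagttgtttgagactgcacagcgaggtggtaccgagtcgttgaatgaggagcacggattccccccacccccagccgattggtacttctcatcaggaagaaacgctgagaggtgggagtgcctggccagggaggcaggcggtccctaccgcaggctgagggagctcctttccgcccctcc
Ncan, chr8:70120845-70121094, minus strand: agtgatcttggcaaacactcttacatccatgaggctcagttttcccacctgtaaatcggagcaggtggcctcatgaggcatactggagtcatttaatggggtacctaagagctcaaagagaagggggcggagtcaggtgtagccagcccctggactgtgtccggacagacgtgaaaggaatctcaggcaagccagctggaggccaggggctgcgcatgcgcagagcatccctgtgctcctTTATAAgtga
Acan, chr7:79052976-79053225, plus strand: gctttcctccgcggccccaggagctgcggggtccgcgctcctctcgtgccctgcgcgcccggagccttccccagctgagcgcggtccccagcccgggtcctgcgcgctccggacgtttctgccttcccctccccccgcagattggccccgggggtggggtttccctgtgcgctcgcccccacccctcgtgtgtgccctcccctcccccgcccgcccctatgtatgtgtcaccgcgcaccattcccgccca
Of 32851 windows of the same length, 22.8% hold TATAA on either strand and 4.46% hold the AP-1 motif. The Acan window had a GC content of 74.4% with 26 CG dinucleotides, and that of Ptprz1 71.6% with 22. Vcan had 62.4% GC with 10 CG and Bcan 62% with 16. Ncan was the poorest in GC, at 54.4% with 6 CG, against a median of 52.4% and 6 CG over all windows. These are matches of letters only, and no binding or chromatin was measured.

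Vehicle lesions were set against uninjured cord to ask how the injury itself went with the levels of the 6 genes. Vcan rose 2.72-fold, Acan fell 1.43-fold and Cspg5 fell 1.14-fold, while Bcan, Ncan and Ptprz1 did not pass the test. So 1 of 6 rose and 2 fell, beside 26.7% of all genes tested that rose, 24.1% that fell and 50.8% called in either direction. The share of members called was thus near that of all genes. Calls are edgeR quasi-likelihood tests with Benjamini-Hochberg adjustment over 16473 genes at 0.05, and every adjusted p given without another tool is from that fit.

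Vcan, the large lectican of loose and provisional matrix, was at 41.2, 36.3, 39.8 and 46.1 CPM in the uninjured libraries and at 100.02, 83.0, 152 and 108 CPM in the vehicle libraries 402, 428, 429 and 457. The groups did not overlap, as in 51% of all genes tested in this comparison, and library 429 stood highest. The rise was 1.44 on the log2 scale (SE 0.26, 95% interval 0.88 to 2.01, adjusted p = 0.000557). Without the 5 libraries high in muscle transcripts, which leaves 1 vehicle library, the log2 difference was 0.90 and not called (adjusted p = 0.321, with 1.7% of all genes called). In the same comparison all 7 fibroblast markers rose, and their summed level went from 125 to 509 CPM in uninjured cord to 2729 to 7719 CPM in vehicle lesions. All 7 macrophage markers rose too, from a summed 51.5 to 99.4 CPM to 1095 to 2446 CPM. Of the 7 oligodendrocyte precursor markers 2 rose, from a summed 1068 to 1234 CPM to 1279 to 1407 CPM. The part of each cell type in the Vcan level was not tested.

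Acan, the lectican of cartilage and of perineuronal nets, was at 41.3, 40.4, 44.0 and 39.9 CPM in uninjured cord and at 29.9, 27.9, 28.7 and 29.6 CPM in vehicle lesions. Every vehicle library lay below every uninjured one, with little spread inside either group. Acan fell by 0.51 on the log2 scale (SE 0.08, 95% interval -0.69 to -0.34, adjusted p = 0.000224). Without the muscle-high libraries the difference was -0.57 and not called (adjusted p = 0.140). All 8 neuronal markers fell in this comparison, from a summed 3641 to 3996 CPM to 1930 to 2505 CPM. Of 4 markers of neurons that bear perineuronal nets 3 fell, such as the potassium channel gene Kcnc1 (378 ± 9.39 to 186 ± 28.7 CPM). Of 11 cartilage markers tested 5 rose and 0 fell, from a summed 119 to 155 CPM to 207 to 265 CPM. The parts of neurons and of cartilage in the Acan level were not tested.

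Bcan, the short lectican of the adult cord, was at 299, 316, 332 and 324 CPM in uninjured cord and at 277, 301, 280.3 and 291 CPM in vehicle lesions. Vehicle library 428 reached above the lowest uninjured library, so the groups overlapped. The difference of -0.15 on the log2 scale (SE 0.08, adjusted p = 0.152) was not called with 12 libraries. It was called in a fit of the 8 libraries compared (adjusted p = 0.0341) and without tamoxifen library 564 (adjusted p = 0.0320), with estimates of -0.14 and -0.15.

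Ncan, a lectican that astrocytes and neurons make, was at 81.1, 83.3, 91.0 and 106 CPM in uninjured cord and at 110.4, 112, 128 and 121 CPM in vehicle lesions. All vehicle libraries lay above all uninjured ones, and the groups did not overlap in 51% of all genes tested. The difference was 0.38 on the log2 scale (SE 0.31, 95% interval -0.28 to 1.04), and its adjusted p was 0.324. With the 4 tamoxifen libraries left out of the fit, where Ncan spread widely, the same 0.38 was called (adjusted p = 0.00412). Of 8 astrocyte markers 4 rose and 0 fell, such as Gfap (2164 ± 152 to 5176 ± 550 CPM), with a summed 6504 to 7263 CPM in uninjured cord and 9369 to 11830 CPM in vehicle lesions, and their part in the Ncan level was not tested.

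Cspg5 was at 146, 135, 135 and 145 CPM in uninjured cord and at 131, 127, 125 and 108 CPM in vehicle lesions, without overlap. It fell by 0.19 on the log2 scale (SE 0.08, 95% interval -0.36 to -0.03, adjusted p = 0.0463). This call lay close to the threshold. It was lost without uninjured library 376 (adjusted p = 0.106), 377 (0.0577), 385 (0.0546) or 467 (0.102), and without vehicle library 457 (0.104). A term for sex (adjusted p = 0.0861, with 46.2% of all genes called), library totals alone (0.0581), a stricter filter (0.0508) and the absence of the muscle-high libraries (0.394) ended it as well. The difference stayed between -0.15 and -0.23 in the settings that lost the call, so its size changed little.

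Ptprz1 was at 189, 183, 186 and 212 CPM in uninjured cord and at 209.6, 223, 236 and 223 CPM in vehicle lesions. The highest uninjured library lay above the lowest vehicle library. The difference of 0.21 on the log2 scale (SE 0.10, adjusted p = 0.0848) was not called, and it was called without tamoxifen library 549 (adjusted p = 0.0123) and in the fit of the 8 libraries compared (0.0148). On the authors' FPKM the groups did not overlap, with 18.4 to 22.9 FPKM in uninjured cord and 27.3 to 31.2 FPKM in vehicle lesions. In CPM the groups did not overlap in 51% of all genes tested, and no such share was taken for FPKM. The Ptprz1 difference on the log2(FPKM + 1) scale was 0.53 (limma, adjusted p = 0.00198). The size of the Ptprz1 difference thus moved with the unit.

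None of the 8 libraries of this comparison carries sample names 106 to 108. A term for the sample name series thus reaches its estimates only through the spread that all groups share. In that fit 3 members were called, beside 54.1% of all genes.

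**Figure D2:**
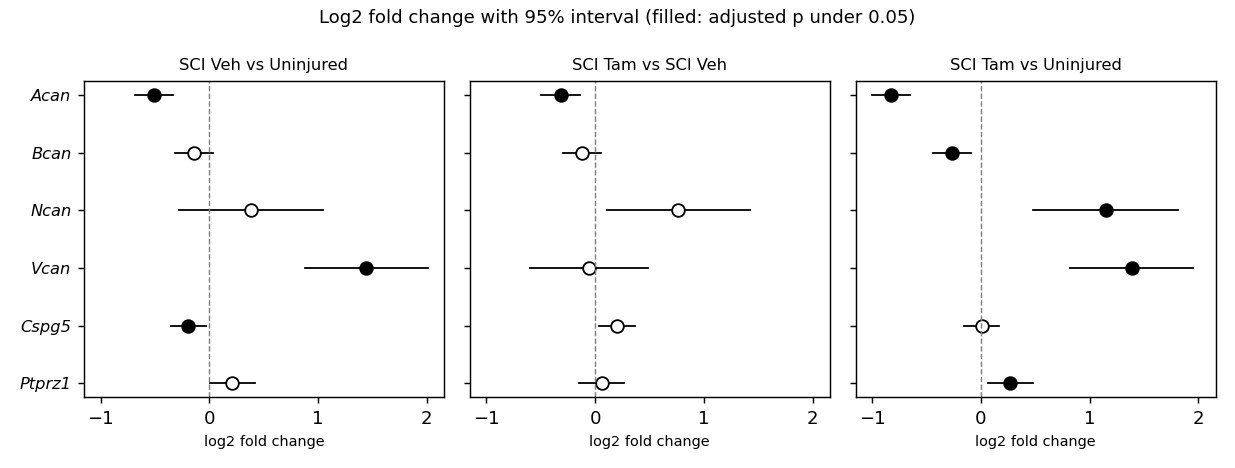
Log2 fold change (x axis) of each core protein gene (y axis) in the 3 comparisons, with its 95% interval from edgeR's quasi-likelihood fit and filled points where the adjusted p was under 0.05. Vcan stood at 1.44 and Acan at -0.51 in vehicle lesions against uninjured cord, and Acan alone was called between the lesion groups, at -0.31.

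The comparison of tamoxifen with vehicle lesions asks whether the 6 genes differed between lesions described as less and more scarred. It shares the vehicle libraries with the comparison before, so the values of the 2 comparisons are not independent. Acan was lower and was called, and the other 5 members were not, beside 16.1% of all genes called (7.79% higher and 8.33% lower). All 7 fibroblast markers fell (median log2 -3.02), to a summed 467 to 948 CPM in tamoxifen lesions, and 0 of 7 macrophage markers were called (median -0.47). With a term for the sample name series, in which library 452 alone stands for tamoxifen, the fibroblast median was -3.20. Without the muscle-high libraries, which leaves vehicle library 428 alone, the fibroblast median was -1.69.

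Acan was at 26.8, 24.2, 20.4 and 22.1 CPM in tamoxifen libraries 452, 513, 549 and 564, each below every vehicle library. These groups did not overlap in 16.4% of all genes tested. Acan fell by a further 0.31 on the log2 scale (SE 0.08, 95% interval -0.49 to -0.14, adjusted p = 0.0244), or 1.24-fold. The call was lost without vehicle library 402 (adjusted p = 0.0532) or 457 (0.0575) and without tamoxifen library 513 (0.0519), 549 (0.0533) or 564 (0.0725). It was lost with a term for sex (-0.34, adjusted p = 0.0901, with 6% of all genes called), with a fit of these 8 libraries (-0.32, adjusted p = 0.0665) and on log2(FPKM + 1) with limma (-0.18, adjusted p = 0.0827). With a term for the sample name series, under which 0.346% of all genes were called, the difference was -0.11 (adjusted p = 0.688). Of 8 neuronal markers 1 rose and 0 fell here, with a summed 2305 to 3419 CPM in tamoxifen lesions. Of 4 markers of neurons that bear perineuronal nets 0 rose and 0 fell (median log2 0.13). The part of neurons in this Acan difference was not tested.

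Ncan was at 91.0, 192, 369 and 148 CPM in tamoxifen libraries 452, 513, 549 and 564. Library 452 lay below all vehicle libraries and the 3 others lay above all of them. The mean difference from vehicle was 0.77 on the log2 scale (SE 0.30, 95% interval 0.11 to 1.42, adjusted p = 0.0995). Without library 452 it was 1.01 and called (adjusted p = 0.00776), and without libraries 513, 549 and 564 it was -0.37 (adjusted p = 0.276), so its direction turned with the libraries that were kept. Library 549 alone was at 3.13 times the vehicle mean and library 452 at 0.773 times. Of 8 astrocyte markers 2 rose, with a summed 10784 to 13660 CPM in tamoxifen lesions.

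Vcan was at 68.7, 113, 169 and 75.9 CPM in the same 4 libraries. Libraries 452 and 564 lay below every vehicle library and library 549 above every one. The difference was -0.06 on the log2 scale (SE 0.25, 95% interval -0.60 to 0.49, adjusted p = 0.897), an interval that covers changes from 0.661-fold to 1.40-fold. Its sign turned without vehicle library 429 (0.14), without tamoxifen library 452 (0.10) or 564 (0.08), and without the muscle-high libraries (0.36). It moved furthest downward with a term for the sample name series (-0.69, adjusted p = 0.431) and without libraries 513, 549 and 564 (-0.69, adjusted p = 0.279). None of these settings gave a call. On log2(FPKM + 1) the difference was -0.40 (limma, adjusted p = 0.334).

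Bcan was at 288, 274, 278 and 216 CPM in tamoxifen lesions, with library 564 the lowest of all 12. The difference from vehicle was -0.12 on the log2 scale (95% interval -0.30 to 0.05, adjusted p = 0.301). Cspg5 was at 130.03, 131, 155 and 148 CPM, and differed by 0.20 (95% interval 0.04 to 0.36, adjusted p = 0.0828). That difference was called without library 452 (0.24, adjusted p = 0.0374). Ptprz1 was at 217, 219, 288 and 205 CPM, and differed by 0.06 (95% interval -0.15 to 0.27, adjusted p = 0.692). The vehicle range of Ptprz1 was 209.6 to 236 CPM, with library 564 just below it, 452 and 513 inside it and 549 above it.

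**Figure D3:**
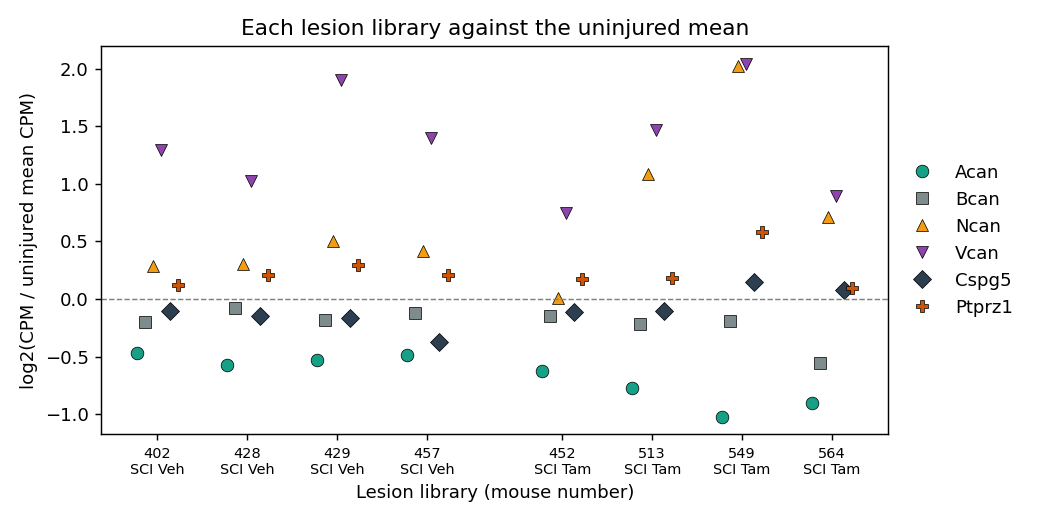
Log2 ratio of each lesion library's CPM to the mean CPM of the 4 uninjured libraries (y axis) for the 6 genes, by lesion library (x axis). Acan lay below 0 in all 8 libraries and Vcan above 0 in all 8, while Ncan went from 0.01 in library 452 to 2.03 in library 549.

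In tamoxifen lesions against uninjured cord, 5 of 6 members were called, beside 48.9% of all genes tested. Ncan, Vcan and Ptprz1 rose (26.3% of all genes rose) and Acan and Bcan fell (22.7% fell), while Cspg5 did not pass the test. Uninjured libraries serve in this comparison and in the first, and tamoxifen libraries in this one and in the second. Vcan rose 2.61-fold (log2 1.39, SE 0.26, adjusted p = 0.000958), with all 4 libraries above the uninjured range. Ncan rose 2.21-fold (log2 1.15, SE 0.31, adjusted p = 0.00818), with 3 of 4 libraries above the uninjured range and library 452 inside it. Acan fell by 0.83 on the log2 scale (SE 0.08, adjusted p = 2.87e-05), with all 4 libraries below the uninjured range.

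Bcan fell by 0.27 on the log2 scale (SE 0.08, adjusted p = 0.0152), and its 4 tamoxifen libraries lay below all uninjured ones, while the groups did not overlap in 41.1% of all genes tested. On log2(FPKM + 1) it was -0.13 and not called (limma, adjusted p = 0.162). Ptprz1 rose by 0.27 (SE 0.10, adjusted p = 0.0333) with overlap between the groups. That call was lost without uninjured library 376 (adjusted p = 0.0703), 377 (0.0888) or 385 (0.0840), without vehicle library 402 (0.0524), 428 (0.0559) or 457 (0.0564), and without tamoxifen library 549 (0.0835). On the authors' FPKM the Ptprz1 groups did not overlap, at 18.4 to 22.9 in uninjured cord and 25.6 to 36.1 in tamoxifen lesions. The share of all genes without overlap was not taken for FPKM. Cspg5 differed by 0.01 (95% interval -0.15 to 0.17, adjusted p = 0.940), with means of 141 ± 12.6 CPM and 140.3 ± 6.30 CPM.

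With a term for the sample name series, in which library 452 alone stands for tamoxifen, 1 of 6 members was called in this comparison, beside 11.8% of all genes. A term for sex left all 5 calls in place, beside 43.8% of all genes. The member called with the series term was Acan, at -0.62 (adjusted p = 0.00531). Ncan was at 0.01 (adjusted p = 0.994), Vcan at 0.75 (0.191), Bcan at -0.14 (0.482) and Ptprz1 at 0.18 (0.489). Without the muscle-high libraries Acan (-0.82, adjusted p = 0.0124) and Vcan (1.26, adjusted p = 0.0499) were called, beside 20.4% of all genes. Skeletal muscle markers summed to 5.38 to 23.7 CPM in tamoxifen lesions and to 4.25 to 803 CPM in uninjured cord, and their part in these differences was not tested.

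The makeup of the lecticans was set out per length as each gene's share of the summed FPKM of Acan, Bcan, Ncan and Vcan in a library. The sum was 94.0 ± 2.92 FPKM in uninjured cord, 101 ± 4.34 in vehicle lesions and 107 ± 24.8 in tamoxifen lesions. Bcan made up 78.7 ± 1.1% of it in uninjured cord and 67.6 ± 3.15% in vehicle lesions. Vcan went from 5.26 ± 0.382% to 15.5 ± 2.85%, Ncan from 11.1 ± 1.05% to 13.7 ± 0.438% and Acan from 4.94 ± 0.260% to 3.25 ± 0.192%. For each of these 4 shares the groups did not overlap, and the exact two-sided permutation test gave p = 0.0286, the smallest that 4 against 4 libraries allow (adjusted p = 0.0490 over 12 tests). The shares sum to 100 and are therefore not independent of each other.

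In tamoxifen lesions Bcan made up 64.5 ± 10.1%, Ncan 21.7 ± 8.48%, Vcan 11.1 ± 2.98% and Acan 2.71 ± 0.734%. Library 549 stood at one end with 52.0% Bcan and 32.6% Ncan, and library 452 at the other with 76.5% Bcan and 11.9% Ncan. Against vehicle lesions none of the 4 shares passed the exact permutation test (adjusted p of 0.152 to 0.60). Against uninjured cord the shares of Acan, Bcan and Vcan passed (adjusted p = 0.0490 each, exact permutation test) and that of Ncan did not (adjusted p = 0.0857).

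**Figure D4:**
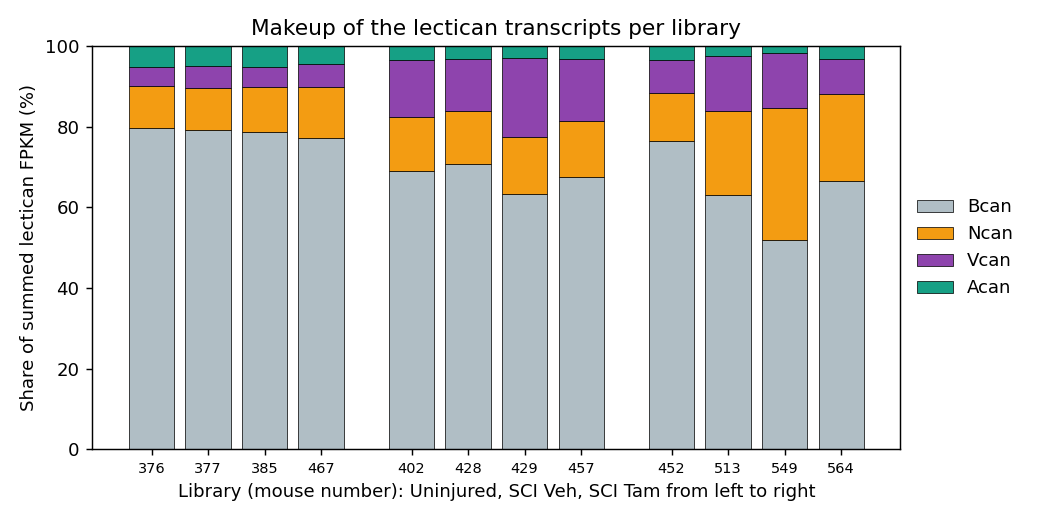
Share of each lectican in the summed lectican FPKM (y axis, percent) of each of the 12 libraries (x axis, by group). Bcan took 77.1 to 79.5% in uninjured cord and 63.3 to 70.6% in vehicle lesions, and from 52.0 to 76.5% in tamoxifen lesions.

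Across the 12 libraries the 6 genes did not move as 1 group. Vcan and Ptprz1 (Pearson r = 0.86 on log2 CPM), Ncan and Ptprz1 (0.84) and Ncan and Vcan (0.76) were alike, and Acan went against Vcan (-0.82), Ncan (-0.79) and Ptprz1 (-0.75). Acan went with Bcan (0.76), while Cspg5 stayed between -0.23 and 0.30 with every other member. These are descriptions over 12 libraries that share their 3 groups and, in 3 libraries, their sample name series. By a rule set for the 3 highest correlations over the same libraries, the genes most like Vcan were Gabpa (0.99), Cbfb (0.99) and Parvb (0.98). For Acan these were Celsr2, Mtor and Asap1 (0.97 each), and for Bcan Dvl3 (0.96), Mink1 (0.96) and Polr3a (0.95). Ncan was most like Etfdh (0.95), Dennd4c (0.94) and Rrm1 (0.94), Ptprz1 most like Fubp3 (0.95), Zfp513 (0.93) and Sox6 (0.92), and Cspg5 most like Mrpl19 (0.89), Abhd16a (0.85) and Park7 (0.85).

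The genes around the core proteins were read from 7 lists, whose counts stand beside the shares over all genes tested. Over all genes, 26.7% rose and 24.1% fell in vehicle lesions against uninjured cord. In tamoxifen against vehicle lesions 7.79% were higher and 8.33% lower. Of 10 other chondroitin sulphate carriers, 7 rose and 3 fell in vehicle lesions against uninjured cord (median log2 1.42, against 0.02 over all genes). Cd44, the hyaluronan receptor, rose from 21.3 ± 2.99 to 133 ± 29.1 CPM (log2 2.64). Bgn, the small proteoglycan biglycan, rose from 54.2 ± 18.8 to 312 ± 103 CPM (log2 2.53). Cspg4, the NG2 proteoglycan of oligodendrocyte precursors and pericytes, rose from 27.8 ± 2.68 to 78.5 ± 19.1 CPM (2.83-fold, adjusted p = 9.01e-05). The testican gene Spock1 fell from 341 ± 12.2 to 227 ± 13 CPM (log2 -0.58). Between tamoxifen and vehicle lesions 1 of these 10 rose and 3 fell with tamoxifen (median -0.50, against 0.00 over all genes). Bgn was lower at 83.4 ± 11.9 CPM (log2 -1.91), the decorin gene Dcn at 112 ± 35.2 CPM (log2 -1.72), and Spock3 was higher (log2 0.40). Cspg4 was at 52.3 ± 15.6 CPM and did not pass (log2 -0.59, adjusted p = 0.0636). Bgn and Dcn are fibroblast genes too, and Dcn stands in the fibroblast marker list that fell as a whole.

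Of the 9 genes for hyaluronan synthases, link proteins and tenascins, 2 rose and 3 fell in vehicle lesions against uninjured cord (median log2 -0.14). Tnc, the tenascin of developing and injured tissue, rose from 9.96 ± 0.935 to 109 ± 38.2 CPM (log2 3.45), whereas Tnr, the tenascin of perineuronal nets, was at 76.6 ± 9.76 and 75.7 ± 20.4 CPM (log2 -0.02, adjusted p = 0.962). The link protein genes Hapln4 (255 ± 10.6 to 145 ± 25.0 CPM, log2 -0.82) and Hapln1 (24.3 ± 2.56 to 14.9 ± 2.27 CPM, log2 -0.72) fell, as Acan did. Between the lesion groups Hapln1 was the only 1 of the 9 called, higher with tamoxifen at 20.1 ± 2.09 CPM (log2 0.43, adjusted p = 0.0345). Tnc was at 56.7 ± 36.2 CPM and did not pass (log2 -0.93, adjusted p = 0.121).

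The next list holds the enzymes that start and lengthen the chains. Of 12 genes, 2 rose and 4 fell in vehicle lesions against uninjured cord (median log2 -0.16). The share called was near the 50.8% of all genes called. Csgalnact2, which adds the first chondroitin sugar, rose (18.3 ± 1.97 to 29.4 ± 2.89 CPM, log2 0.69), and so did the chondroitin synthase gene Chsy1 (5.71 ± 0.840 to 9.64 ± 1.73 CPM, log2 0.76). Fam20b, a kinase of the linkage sugar, fell (log2 -0.38), as did B3gat3 (log2 -0.44), which completes the linkage. With tamoxifen against vehicle B3gat3 was higher (log2 0.28) and the other 11 did not pass, Chsy1 among them (log2 -0.52, adjusted p = 0.0594).

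Of 9 sulphotransferase and epimerase genes tested, 3 rose and 0 fell in vehicle lesions against uninjured cord (median log2 0.15). Dse, the epimerase that turns chondroitin into dermatan sulphate, rose from 9.87 ± 2.11 to 26.3 ± 5.08 CPM (log2 1.42). The dermatan sulphotransferase gene Chst14 rose by 1.39 and the chondroitin sulphotransferase gene Chst11 by 0.44 on the log2 scale. In tamoxifen against vehicle lesions Dse was lower (15.0 ± 0.582 CPM, log2 -0.81, adjusted p = 0.00673) and the other 8 did not pass, with Chst11 at 0.12 (adjusted p = 0.471).

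Of 7 proteases that cut lecticans, 6 rose in vehicle lesions against uninjured cord (median log2 0.88). Adamts1 rose from 34.3 ± 3.76 to 83.1 ± 5.19 CPM (log2 1.28), Adamts5 from 22.4 ± 2.68 to 41.3 ± 1.45 CPM (log2 0.88) and Adamts8 by 1.15 on the log2 scale. Adamts4, an aggrecanase, was at 149 ± 14.4 and 163 ± 15.3 CPM and did not pass (adjusted p = 0.480). In tamoxifen against vehicle lesions Adamts15 (12.5 ± 6.24 to 3.20 ± 1.38 CPM, log2 -2.0) and Adamts5 (log2 -0.42) fell.

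Of 4 genes for receptors of the chains, Rtn4r, the Nogo receptor, fell in vehicle lesions against uninjured cord (log2 -0.66, adjusted p = 0.0132), and Ptprs, the receptor phosphatase sigma, did not pass (376 ± 20.0 and 343 ± 10.5 CPM, log2 -0.13, adjusted p = 0.0703). In tamoxifen against vehicle lesions Ptprs fell to 288 ± 16.5 CPM (log2 -0.25, adjusted p = 0.0151). All 4 fell in tamoxifen lesions against uninjured cord (median log2 -0.44), beside 22.7% of all genes that fell. Of 7 ligands and partners of Ptprz1, 3 rose and 1 fell in vehicle lesions against uninjured cord (median log2 0.23). The growth factor gene Mdk rose from 17.9 ± 1.80 to 34.7 ± 3.51 CPM (log2 0.96) and the adhesion gene L1cam fell (log2 -0.44), while the growth factor gene Ptn did not pass (log2 0.23, adjusted p = 0.0613). None of the 7 was called between the lesion groups.

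**Figure D5:**
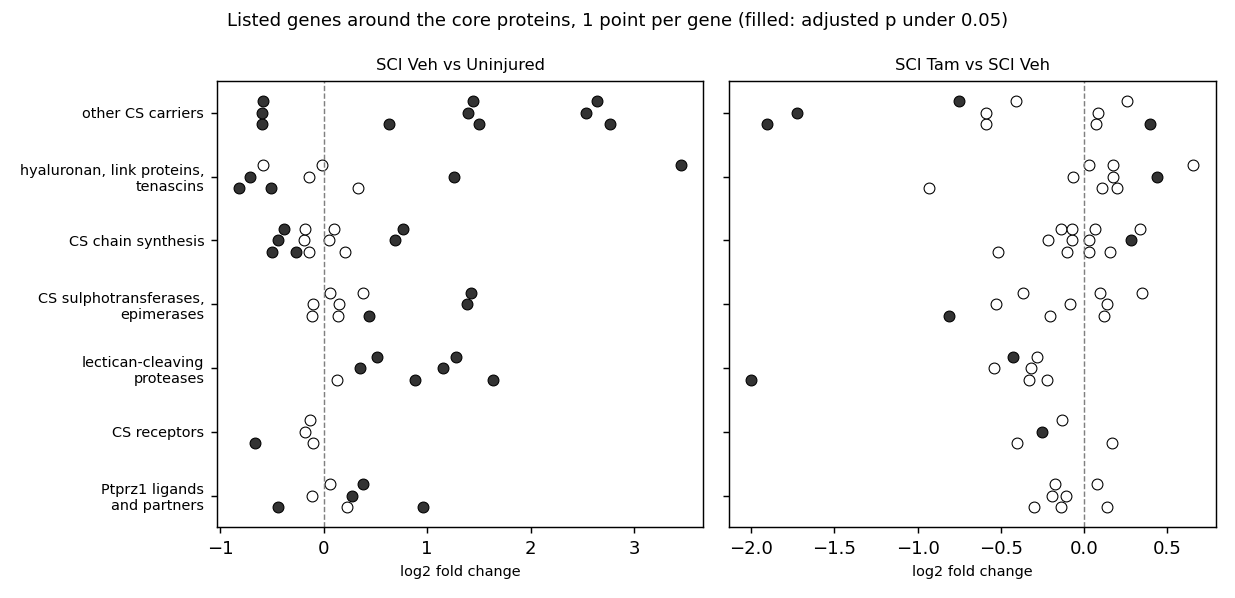
Log2 fold change (x axis) of every tested gene of the 7 lists (y axis), in vehicle lesions against uninjured cord on the left and in tamoxifen against vehicle lesions on the right, with filled points where the adjusted p was under 0.05. Of 7 lectican-cleaving proteases 6 are filled on the left and 2 on the right, and the 4 filled carriers on the right reach from -1.91 (Bgn) to 0.40 (Spock3).

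In tamoxifen lesions against uninjured cord, 4 of the 10 other carriers rose and 2 fell, 2 of the 9 hyaluronan, link protein and tenascin genes rose and 3 fell, and 2 of the 12 chain enzymes rose and 4 fell. Of the 9 sulphotransferases and epimerases 4 rose and 1 fell. Of the 7 proteases 2 rose, and of the 7 partners of Ptprz1 2 rose and 1 fell. Over all genes tested 26.3% rose and 22.7% fell in this comparison. With a term for the sample name series, library 452 alone stands for tamoxifen in the comparison with vehicle lesions. In that fit Tnc was at -2.84 on the log2 scale. Over all tamoxifen libraries Tnc ran from 15.2 to 102 CPM. The medians of the carriers (-0.48) and proteases (-0.56) stayed below 0 with the term. These medians were -0.12 and -0.30 without the muscle-high libraries, which leaves 1 vehicle library. Calls named above between the lesion groups in the 7 lists come from the fit of all 12 libraries without added terms. Whether those calls hold in either setting cannot be tested with 1 library in a group.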

How the data were processed

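The 6 members were given by symbol, and the members and the gene and marker lists were chosen with earlier results of these data known. The authors deposited raw counts per Ensembl gene, checked to be whole numbers, and FPKM per gene. TopHat, Picard, Cufflinks, HTSeq and the build mm9 are named as the authors' processing, per the submitters' processing notes. The tools' versions, the library strand, the read length and how multiply matching reads were counted are not given there.

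The count test was made with edgeR 4.0.16 (R 4.3.3), with its filterByExpr (minimum count 10, minimum total 15), TMM scaling and 1 quasi-likelihood fit of 3 group means over all 12 libraries, two-sided, with Benjamini-Hochberg adjustment over 16473 genes at 0.05. Standard errors came from the F statistic. The fit was tested on simulated counts first. Lectican shares used FPKM and exact permutation tests (scipy 1.17.1).

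Alternatives were DESeq2 1.42.0 (size factors, Wald test), library totals alone, no filter or at least 1 CPM in 8 libraries, limma 3.58.1 (voom, and log2 FPKM after adding 1 or 0.1), fits restricted to each pair of groups (8 libraries), terms for sex and for sample names 106 to 108, sets without those libraries or without libraries whose muscle markers had a mean log2 CPM above 2, and each library left out. Libraries were called male from sex-linked genes.

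Named genes are the 6 members, up to 3 genes of the smallest p per list and comparison, Cspg4, Tnc, Tnr, Hapln1, Chst11, Chsy1, Ptprs and Adamts4 whatever their values, and for each member the 3 genes most correlated with it among those with a mean of at least 5 CPM (log2 CPM, prior count 2). Hras1 and Nras were added as context. Of 31-base words in the reference transcripts, Acan and Vcan shared 0% with other genes and the other members at most 1.43%. Each read was counted without molecular identifiers, so depth errors cover sampling alone. With no genome of mm9 used here, the only positions given are those of RefSeq upstream windows on GRCm38.p6.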

Additional observations from a re-analysis of the deposited data

Results flagged for a closer look

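Ptprz1 in tamoxifen library 549 was at 288 CPM, while the 3 other tamoxifen libraries lay between 205 and 219 CPM. The gap to the nearest library was 0.840 of the whole range of the group, above Dixon's limit for 4 values. It was the only 1 of 18 groups of 4 libraries tested (6 genes in 3 groups) that stood out so, and chance alone marks about 1 in 20. The same library had the highest Ncan (369 CPM) and Vcan (169 CPM) and the lowest Acan (20.4 CPM) of all 12.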

How the results depend on the processing

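No paired analysis was possible because the replicate numbers are mouse numbers that no groups share. In vehicle against uninjured, 6 members were called in the fit of the 8 libraries compared (8755 of 16138 genes) and without libraries 106 to 108 (9022 of 17323 genes), and 0 (of 296 genes called) without the muscle-high libraries. With 1 library left out, counts of members ran from 2 to 4 in this comparison, from 0 to 3 in tamoxifen against vehicle and from 4 to 5 in tamoxifen against uninjured, and counts of genes in tamoxifen against vehicle from 1236 to 4631. There 0 members were called on log2(FPKM + 1) (1341 genes), log2(FPKM + 0.1) (919 genes), in the fit of the 8 libraries (1513), with a sex term (989), with a sample name term (57), without libraries 106 to 108 (29) and without the muscle-high libraries (0 genes). In tamoxifen against uninjured the sample name term left 1 member (1951 genes), the absence of libraries 106 to 108 1 (2024 genes) and that of the muscle-high libraries 2 (3540 genes). The Vcan rise and the Acan fall in vehicle lesions kept their calls in all of these settings except without the muscle-high libraries, where 1 vehicle library is left.

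Signs turned only for differences that were not called. In tamoxifen against vehicle these were Ptprz1 (-0.051 on log2(FPKM + 1), -0.053 on log2(FPKM + 0.1), -0.036 with the sample name term, -0.035 without libraries 106 to 108), Bcan (0.0011 and 0.0018 under the last 2), Ncan (-0.37 under both) and Vcan (0.36 without the muscle-high libraries). In tamoxifen against uninjured it was Cspg5: -0.0061 with DESeq2 size factors, -0.0041 without a filter, -0.0053 with the DESeq2 test, -0.0047 with 8 libraries, -0.11 with the sample name term and without libraries 106 to 108, and -0.071 without the muscle-high libraries. With 1 library left out, log2 differences ran from -0.059 to 0.12 for Ptprz1 and from -0.37 to 0.14 for Vcan in tamoxifen against vehicle, and from -0.041 to 0.043 for Cspg5 in tamoxifen against uninjured. The Bcan share in tamoxifen minus vehicle lesions ran from -7.05 to 1.12 percentage points. The cause was not tested in any of these. With 3 libraries in a group the share tests cannot reach an adjusted p under 0.05 (lowest 0.0762).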
